A study of Mus musculus with 18 samples.

Results

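The 40 genes described here serve protein import, folding and disposal at the endoplasmic reticulum (ER), and they were listed by symbol for their function, with earlier results of these data known. They fall into 3 functional groups, namely 17 chaperones and oxidoreductases (the folding group), 14 genes of the translocon, signal peptidase and signal recognition particle (the translocation group) and 9 genes of ER-associated degradation (ERAD). All 40 were among the 23420 symbols of the count table, and 39 of them were among the 11762 genes with enough reads to be tested. The cells were NIH-3T3 fibroblasts, an immortalized mouse line. The wild-type (WT) line was compared with an Nrf1-KO derivative made by CRISPR/Cas9, in which the ER-bound transcription factor Nrf1 (gene Nfe2l1) was targeted. Each line was treated with DMSO, the vehicle, for a time the labels do not give, or with 200 nM carfilzomib (CFZ), an irreversible proteasome inhibitor, for 6 h or for 24 h. Each of these 6 groups held 3 biological replicates, 18 libraries in all, and the labels name no other agent. Whether the Nrf1-KO line was 1 clone or a pool is not given in the sources used here.

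A secretory or membrane protein enters the ER through the Sec61 channel, often delivered by the signal recognition particle, and signal peptidase then removes its signal sequence. In the lumen, Hsp70, Hsp90 and lectin chaperones hold the chain while protein disulfide isomerases, recharged by Ero1 oxidases, form its disulfide bonds. Chains that fail to fold, demannosylated where they carry glycans, are drawn back through the membrane by ERAD factors and degraded by the proteasome. A shortage of folding capacity activates the unfolded protein response through the sensors ATF6, IRE1 and PERK.

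Total counts per library ran from 8333148 to 23917081, with a median of 14419832. Levels are CPM, the reads of a gene relative to the library's total, after TMM scaling, given as mean ± SD of 3 libraries. Differences are log2 fold changes from edgeR's quasi-likelihood test in a single model of the 6 groups, and a gene is called higher or lower where its Benjamini-Hochberg adjusted p, over all genes tested, is under 0.05. Nfe2l1 stood at 447 ± 9.86 CPM in WT DMSO, 642 ± 12.4 at 6 h and 564 ± 13.4 at 24 h, against Nrf1-KO levels of 180.0 ± 5.27, 419 ± 7.19 and 204 ± 4.45. In DMSO the difference was -1.31 on the log2 scale (edgeR adjusted p = 1.56e-24). Its RNA was therefore reduced and not absent in the knockout, and the counts do not show which part of it was edited. All 8 fibroblast markers examined were present in every group, and the summed levels of the epithelial, endothelial, blood and muscle markers reached at most 13.0, 3.83, 5.77 and 2.47 CPM, with no read on Epcam, Krt18 or Cd3e.

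The promoters of some members carry a sequence that ATF6 is known to bind, the ER stress response element (ERSE), which is CCAAT, 9 bases, then CCACG. Of the 40 members, 32 had an entry in the RefSeq promoter table (GRCm38.p6, 250 bases before to 50 after the gene start). Both strands of each were searched. The stretches below are shown because they hold the element in members whose responses differ widely, from the strongest riser to members that fell or had no read. Capitals mark the element, on the strand of the gene, so that an element on the opposite strand reads CGTGG first and ATTGG last. In Herpud1 the capitals mark instead a C/EBP-ATF response element (CARE, TTGCATCA), which ATF4 and CHOP are known to use, and the related ERSE-II, which is ATTGG, 1 base, then CCACG.
Hspa5, chr2:34772010-34772058, + strand: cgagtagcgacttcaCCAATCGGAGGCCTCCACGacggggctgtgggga
Ero1lb, chr13:12565667-12565715, + strand: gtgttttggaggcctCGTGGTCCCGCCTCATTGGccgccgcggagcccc
Calr, chr8:84847060-84847108, - strand: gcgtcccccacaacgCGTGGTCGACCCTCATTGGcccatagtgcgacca
Canx, chr11:50325785-50325833, - strand: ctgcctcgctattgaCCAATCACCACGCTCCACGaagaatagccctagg
Pdia6, chr12:17266476-17266524, + strand: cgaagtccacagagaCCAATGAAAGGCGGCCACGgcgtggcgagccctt
Derl3, chr10:75893227-75893275, + strand: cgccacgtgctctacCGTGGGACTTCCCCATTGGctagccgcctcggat
Herpud1, chr8:94386302-94386402, + strand: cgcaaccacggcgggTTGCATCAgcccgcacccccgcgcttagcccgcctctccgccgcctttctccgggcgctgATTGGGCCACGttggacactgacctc

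ERSE was present in 8 of the 15 folding promoters with an entry, in 0 of 10 translocation promoters and in 1 of 7 ERAD promoters, that of Derl3. Over all 32851 promoters of the table the share was 0.119%. Besides the genes shown, the element stood in Dnajc3, Creld2 and, in 2 copies, Hsp90b1, and the first base of each match lay from -212 to -65 relative to the gene start in RefSeq. GENCODE M21 begins Hspa5 farther upstream, so that by its coordinates, used for genes here, the Hspa5 element lies within the gene. ERSE-II occurred in Herpud1 and Dnajb11 (0.0365% of all promoters), and CARE in Herpud1 alone among the members (0.895% of all promoters). The XBP1-type element TGACGTGG was found in 0 of the 32 (0.676% of all promoters). The core of the antioxidant response element, to which Nrf1 is known to bind (TGAC, 3 bases, GC), was found in 7 of the 32, against 12.4% of all promoters. The 7 were Pdia3, Calr, Sdf2l1, Sec61b, Spcs1, Ssr4 and Herpud1. These matches describe letters within 1 window and no binding was measured. Ssr2, Sec61a1, Spcs3, Hyou1, Manf, Erlec1, Srp68 and Derl1 had no entry.

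After CFZ nearly the whole folding group was higher in both lines, while the translocation and ERAD groups held members called in either direction. In WT at 6 h, 26 of the 39 members tested were higher and 5 lower, where 35.6% and 36.2% of all genes tested were called in those directions. At 24 h, 24 were higher and 14 lower, beside 43.2% and 40.5% of all genes. The Nrf1-KO line had 24 higher and 9 lower at 6 h (all genes, 34.5% and 35.0%), and 22 higher and 12 lower at 24 h (all genes, 44.4% and 41.1%). Most of the 11762 genes tested passed at either time, so the number of members called is read here by direction. With library size alone as the scaling the counts higher and lower were 22 and 12 in WT at 6 h, 20 and 14 in the Nrf1-KO line at 6 h and 19 and 17 at 24 h, and with upper-quartile scaling 25 and 11 in WT at 6 h. The CFZ comparisons of a line share its DMSO libraries.

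Few of these changes were large. Called changes of at least 2-fold upward were seen for 2 members in WT at 6 h, Hspa5 and Dnajb9 (all genes, 3.98%), and for 5 at 24 h, Ero1lb, Hspa5, Dnajb9, Hyou1 and Calr (10.5%). In the Nrf1-KO line they were seen for Hspa5 and Ero1l at 6 h (3.30%) and for 7 members at 24 h, the 5 of WT with Ero1l and Pdia3 (11.5%). No member fell by as much as 2-fold against DMSO at either time in either line, where 5.65% and 14.5% of all genes did so in WT at 6 h and 24 h, and 4.26% and 15.2% in the Nrf1-KO line.

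**Figure D1:**
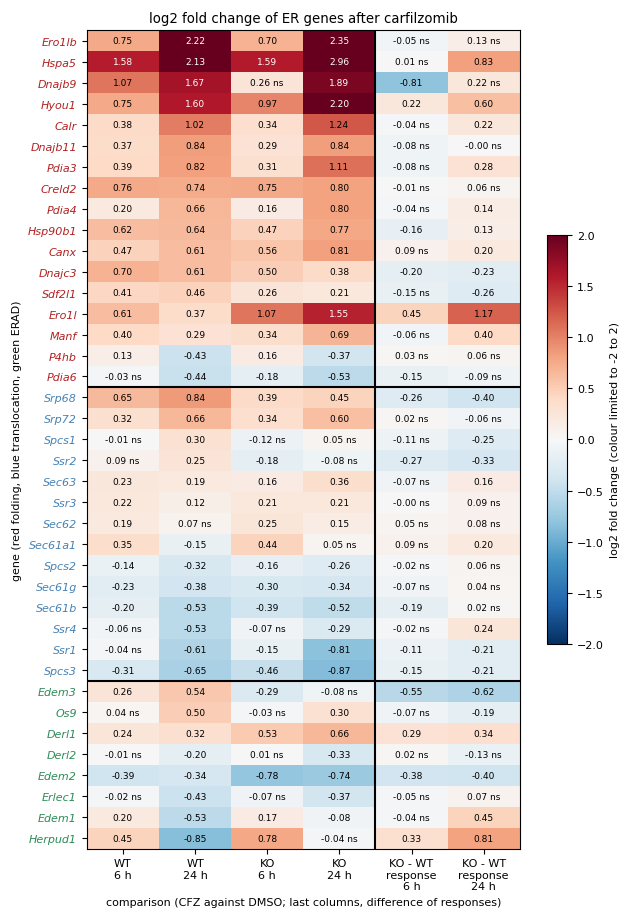
Log2 fold changes of the 39 members tested, with rows ordered within the folding (red names), translocation (blue) and ERAD (green) groups and columns giving CFZ against DMSO in each line at 6 h and 24 h and the difference of the responses (Nrf1-KO minus WT), where ns marks a change that did not pass the test. The folding rows are almost wholly red in the 4 treatment columns, up to 2.96 for Hspa5, and the other rows hold both colours.

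In the folding group, 16 of 17 members were higher in WT at 6 h and none was lower, with a median log2 fold change of 0.47, where the median of all genes was -0.02. At 24 h 15 were higher and 2 lower, with a median of 0.66 (all genes, 0.02). In the Nrf1-KO line 15 were higher and 1 lower at 6 h with a median of 0.34 (all genes, -0.01), and 15 were higher and 2 lower at 24 h with a median of 0.81 (all genes, 0.03). The group's summed level (SD, n = 3) was 6706 ± 55.5 CPM in WT DMSO, then 10063 ± 153 at 6 h and 11986 ± 283 at 24 h. The Nrf1-KO sums were 6821 ± 65.0, 9896 ± 92.8 and 15587 ± 357 CPM. Every CFZ library lay above every DMSO library, and every Nrf1-KO library at 24 h lay above every WT library at 24 h. In bulk RNA a change in the share of cells that express a gene and a change in RNA per cell cannot be told apart.

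Hspa5 made up 11.0% of that sum in WT DMSO and 27.0% at 24 h of CFZ, while its Nrf1-KO shares were 9.89% and 33.7%. It contributed 47.4% of the group's rise in WT at 24 h and 52.2% in the Nrf1-KO line. Without it the group's summed level still stood 1.47-fold above DMSO in WT and 1.68-fold above in the Nrf1-KO line, in place of 1.79-fold and 2.29-fold. Beside these rises, the summed level of the 8 fibroblast markers lay between 31435 and 34088 CPM in WT DMSO, between 27328 and 29740 at 6 h and between 7834 and 8150 at 24 h. The Nrf1-KO ranges were 25164 to 31618, 27769 to 31452 and 10680 to 12744 CPM. Their part in the result was not tested.

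**Figure D2:**
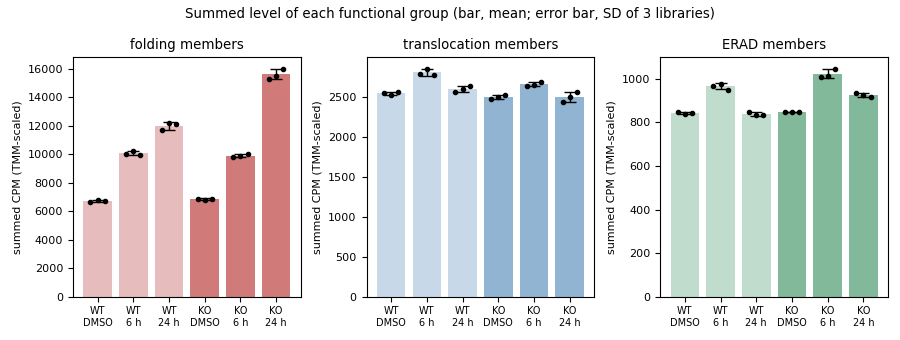
Summed level (CPM, TMM-scaled, axes from 0) of the 17 folding, 14 translocation and 9 ERAD members in each of the 6 groups, with bars for the mean of 3 libraries, error bars for the SD and points for single libraries. The folding sum climbs from 6706 to 11986 CPM in WT and from 6821 to 15587 CPM in the Nrf1-KO line, and the translocation sum stays between 2500 and 2807 CPM.

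Hspa5 encodes BiP, the lumenal Hsp70 that binds unfolded chains and restrains the stress sensors (chr2:34771970-34777547, GRCm38). In WT it was at 724, 763 and 728 CPM in the DMSO libraries, 2214, 2237 and 2158 at 6 h and 3123, 3322 and 3277 at 24 h. The Nrf1-KO values were 677, 650.1 and 697 CPM in DMSO, 2013, 2009.8 and 2065 at 6 h and 5129, 5203 and 5423 at 24 h. Within each line the 3 treatments were fully separate. The Nrf1-KO libraries lay below the WT libraries in DMSO and at 6 h and above them at 24 h, in each case without overlap. The log2 fold change was 1.58 (SE 0.035) at 6 h in WT and 1.59 (SE 0.035) in the Nrf1-KO line, and the difference of these responses was 0.01, with a 95% interval from -0.09 to 0.11. At 24 h they were 2.13 (SE 0.036) and 2.96 (SE 0.037), and the difference of 0.83 passed edgeR's quasi-likelihood test (SE 0.049, adjusted p = 2.2e-15).

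Per kilobase of exon (GENCODE M21 basic transcripts), Hspa5 was not the most abundant member at rest. In WT DMSO Calr and P4hb led with 422 ± 0.231 and 414 ± 0.682 CPM per kilobase, followed by Hsp90b1 at 375 ± 5.84, Pdia3 at 257 ± 2.03, Canx at 223 ± 2.46 and Hspa5 at 197 ± 5.75. By 24 h Hspa5 stood at 863 ± 27.9 and Calr at 855 ± 17.5 in WT, which did not differ beyond their spread, whereas in the Nrf1-KO line Hspa5 at 1399 ± 40.8 was apart from Calr at 1053 ± 44.6. Ero1lb and Dnajb9, among the members with the steepest rises, had the lowest levels per kilobase of the 39 in WT DMSO, at 0.689 ± 0.0234 and 4.33 ± 0.183.

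Hyou1, the large ER Hsp70-like protein that acts as a nucleotide exchange factor for BiP, was at 111, 118 and 109.6 CPM in WT DMSO, 189, 193 and 188 at 6 h and 343, 337 and 344 at 24 h. Its Nrf1-KO levels were 101, 97.0 and 94.1 CPM in DMSO, 185, 196 and 192 at 6 h and 459, 444 and 438 at 24 h. It began lower in the Nrf1-KO line, overlapped with WT at 6 h and lay above every WT library at 24 h. Its response was larger in the Nrf1-KO line at both times, by 0.22 at 6 h (SE 0.053, edgeR adjusted p = 0.00105) and 0.60 at 24 h (SE 0.05, adjusted p = 7.65e-12).

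Dnajb9 (ERdj4), a J-domain co-chaperone of BiP, had the largest difference of responses between the lines at 6 h, in size, among the 39 members. In WT it was at 11.0, 10.8 and 10.1 CPM in DMSO, 22.1, 20.9 and 24.2 at 6 h and 28.7, 36.0 and 35.4 at 24 h. Nrf1-KO libraries had 7.09, 9.10 and 9.33 CPM in DMSO, 10.1, 11.0 and 9.83 at 6 h and 29.8, 31.9 and 34.1 at 24 h. At 6 h every WT library was above every Nrf1-KO library, although the latter did not overlap with their own DMSO libraries, and at 24 h the lines overlapped. The 6 h change was 1.07 in WT (SE 0.095) and 0.26 in the Nrf1-KO line, which did not pass the test (edgeR adjusted p = 0.0529), and the difference of -0.81 did (SE 0.15, adjusted p = 7.39e-05). Without Nrf1-KO DMSO replicate 3 the Nrf1-KO change at 6 h was 0.35 and passed (adjusted p = 0.0261), as it did with the replicate number as a block (0.28, adjusted p = 0.0191) and with the compared groups alone. At 24 h the difference of 0.22 (95% interval from -0.04 to 0.49) did not pass.

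The oxidases that recharge the disulfide isomerases gave contrasting patterns. Ero1l (Ero1α) was at 125.1, 127 and 125.5 CPM in WT DMSO, 196, 191 and 189.5 at 6 h and 161, 161 and 165 at 24 h. The Nrf1-KO values were 70.5, 66.9 and 75.2 CPM in DMSO, 152, 142 and 154 at 6 h and 205, 205 and 213 at 24 h. It thus peaked at 6 h in WT and was highest at 24 h in the Nrf1-KO line, which started below WT and ended above it with no overlap of libraries. In DMSO the Nrf1-KO level differed from WT by -0.82 on the log2 scale (SE 0.04). The difference of the 24 h responses, 1.17 (SE 0.054, edgeR adjusted p = 4.57e-18), was the largest among the 39 members and set a rise of 1.55 against one of 0.37.

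Ero1lb (Ero1β), the related oxidase known from secretory tissue, rose from 4.51, 4.60 and 4.31 CPM in WT DMSO to 7.51, 7.86 and 7.30 at 6 h and 20.5, 20.9 and 21.0 at 24 h. In the Nrf1-KO line it rose from 5.58, 5.35 and 7.05 CPM to 11.4, 9.50 and 8.63 and 32.03, 32.2 and 30.1. Treatments did not overlap within a line, and every Nrf1-KO library was above every WT library of the same treatment. The responses of 2.22 and 2.35 at 24 h did not differ past the threshold (difference 0.13, 95% interval from -0.16 to 0.42). Of the read-length stretches of Ero1lb transcripts, 6.27% also occur in the related locus Gm18562, and how far this affects its level is not known.

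**Figure D3:**
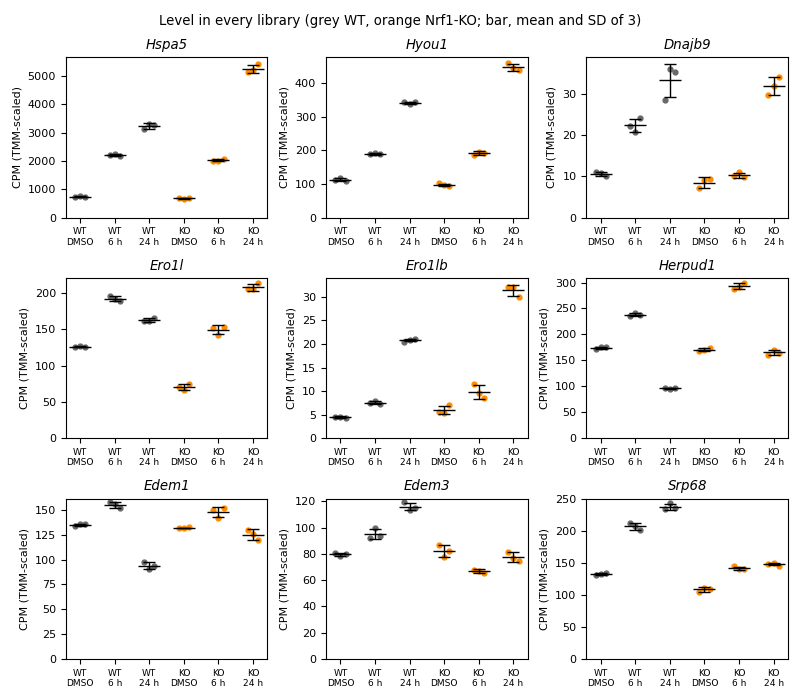
Levels (CPM, TMM-scaled, axes from 0) of 9 members in every library, with grey points for WT, orange points for Nrf1-KO and bars for the mean and SD of 3 libraries. Ero1l and Herpud1 are highest at 6 h in WT, Dnajb9 is near its DMSO level at 6 h in the Nrf1-KO line, and Edem3 rises in WT.

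The calnexin and calreticulin lectins, which hold newly made glycoproteins, rose with their partner Pdia3 (ERp57). Calr (SD, n = 3) was at 922 ± 0.505 CPM in WT DMSO, then 1202 ± 23.3 and 1868 ± 38.1 at 6 h and 24 h of CFZ, and its Nrf1-KO levels were 972 ± 14.2, 1233 ± 4.79 and 2301 ± 97.5. Pdia3 was at 712 ± 5.62, 937 ± 22.9 and 1261 ± 32.1 CPM in WT and at 801 ± 26.6, 997 ± 22.0 and 1724 ± 65.9 in the Nrf1-KO line. For both, as for Canx, the response at 24 h was larger in the Nrf1-KO line, by 0.22 for Calr, 0.28 for Pdia3 and 0.20 for Canx on the log2 scale (edgeR adjusted p = 8.6e-05, 9.04e-06 and 0.000111).

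Hsp90b1 (GRP94, the ER Hsp90) and Pdia4 (ERp72) changed by 0.64 and 0.66 in WT at 24 h and by 0.77 and 0.80 in the Nrf1-KO line. Their differences of 0.13 and 0.14 passed the test, but with library size as the only scaling they were 0.05 and 0.07 and did not. Manf, a secreted BiP-binding factor, rose by 0.29 in WT and 0.69 in the Nrf1-KO line at 24 h, a difference of 0.40 (SE 0.055). Dnajb11 (ERdj3), a BiP co-chaperone, rose by 0.84 in WT and 0.84 in the Nrf1-KO line, with a 95% interval of the difference from -0.12 to 0.11. Its level was already higher in the Nrf1-KO line in DMSO, by 0.51 (SE 0.041). Creld2, a lumenal protein known to be induced by ER stress, rose by 0.74 and 0.80, with an interval from -0.10 to 0.22.

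Dnajc3 (P58IPK), which binds unfolded chains and is known to dampen PERK signalling, responded less in the Nrf1-KO line at both times. It stood at 131 ± 2.33, 212 ± 8.53 and 199.6 ± 3.97 CPM in WT and at 123 ± 2.17, 173 ± 2.36 and 160.5 ± 3.68 in the Nrf1-KO line, and its responses differed by -0.20 at 6 h and -0.23 at 24 h (edgeR adjusted p = 0.00162 and 0.000189). Sdf2l1, a small partner of BiP and ERdj3, changed by 0.46 in WT and 0.21 in the Nrf1-KO line at 24 h. The difference of -0.26 passed (adjusted p = 0.0162), but not with DESeq2 (adjusted p = 0.055), without WT DMSO replicate 1 (-0.22) or without WT 24 h replicate 2 (-0.21). The Nrf1-KO change of Sdf2l1 at 24 h did not pass without Nrf1-KO 24 h replicate 3 (0.13), nor with upper-quartile scaling or library size alone.

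The folding members that fell at 24 h were both disulfide isomerases. P4hb (PDI), which is also the beta subunit of prolyl 4-hydroxylase, was at 1183 ± 1.95 CPM in WT DMSO, 1294 ± 23.3 at 6 h and 881 ± 23.6 at 24 h. The Nrf1-KO levels were 1182 ± 16.7, 1319 ± 38.0 and 917 ± 37.3 CPM in the same order. Pdia6 (P5) was at 363 ± 5.79, 355 ± 5.73 and 267 ± 10.3 CPM in WT and at 446 ± 11.0, 392 ± 8.72 and 309 ± 12.8 in the Nrf1-KO line. The 24 h log2 fold changes were -0.43 and -0.37 for P4hb and -0.44 and -0.53 for Pdia6, with all 24 h libraries below all DMSO libraries in both lines. The Pdia6 promoter is one of those shown above with an ERSE. At 6 h P4hb was higher by 0.13 in WT, but with library size alone its change was -0.0036, and with upper-quartile scaling 0.02, neither past the test.

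In the translocation group 6 of 14 members were higher and 4 lower in WT at 6 h, and 6 were higher and 7 lower at 24 h. In the Nrf1-KO line 6 were higher and 6 lower at 6 h, and 5 were higher and 6 lower at 24 h. The share higher in WT, 42.9% at both times, compares with 35.6% of all genes at 6 h and 43.2% at 24 h, nearly the same share at 24 h. For the Nrf1-KO line the shares of 42.9% (6 h) and 35.7% (24 h) compare with 34.5% and 44.4%. The shares lower in WT were 28.6% at 6 h and 50% at 24 h, beside 36.2% and 40.5% of all genes. For the Nrf1-KO line the share lower was 42.9% at both times, beside 35.0% and 41.1%, nearly the same share at 24 h. The medians were 0.04 and -0.04 in WT at 6 h and 24 h and -0.10 and -0.01 in the Nrf1-KO line, and the first of these turned to -0.07 when scaled by the upper quartile and to -0.09 by library size alone. With either of these scalings 7 members were lower in WT at 6 h in place of 4, and 8 in the Nrf1-KO line at 6 h in place of 6. At 24 h in the Nrf1-KO line 7 were lower with the upper quartile and 9 with library size alone, in place of 6. The summed level went from 2544 ± 15.6 to 2807 ± 40.03 and 2597 ± 35.1 CPM in WT and from 2499.6 ± 22.9 to 2660.2 ± 23.8 and 2501 ± 60.9 CPM in the Nrf1-KO line (SD, n = 3).

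Srp68 and Srp72, which form a heterodimer on the RNA of the signal recognition particle, rose in both lines. Srp68 was at 131, 133 and 135 CPM in WT DMSO, 213, 209 and 202 at 6 h and 234, 244 and 236 at 24 h. The corresponding Nrf1-KO libraries had 105, 112 and 109.8, 145, 141 and 140.2 and 149, 149 and 146 CPM. Under each treatment the Nrf1-KO libraries were all below the WT libraries, and the Nrf1-KO responses differed from those of WT by -0.26 at 6 h and -0.40 at 24 h (SE 0.049 and 0.048, edgeR adjusted p = 6.64e-05 and 1.84e-08).

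Srp72 was at 225, 228 and 232 CPM in WT DMSO, 286, 285 and 283 at 6 h and 359, 360.3 and 364 at 24 h. The Nrf1-KO levels were 234, 234 and 245, 297, 301 and 306 and 358, 364 and 361 CPM in the same order. The Nrf1-KO libraries were slightly above the WT libraries in DMSO and at 6 h and overlapped with them at 24 h. The log2 fold changes of 0.66 in WT and 0.60 in the Nrf1-KO line at 24 h differed by -0.06, with a 95% interval from -0.15 to 0.03. With library size alone the difference was -0.14 and passed the test (adjusted p = 0.00836).

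The channel itself was split. Sec61a1, the pore subunit, was higher at 6 h, by 0.35 in WT and 0.44 in the Nrf1-KO line, and stood at -0.15 and 0.05 at 24 h, of which the second did not pass the test and was -0.13 with library size alone. The small subunits were lower throughout, with log2 fold changes at 24 h of -0.53 and -0.52 for Sec61b and -0.38 and -0.34 for Sec61g. The fall of Sec61g in WT at 6 h, -0.23, did not pass without WT DMSO replicate 1 (-0.13, edgeR adjusted p = 0.0762), and 11.7% of its read-length stretches occur also in Gm10177 or Gm11575. Sec62, which assists post-translational import, and Sec63, whose J domain recruits BiP, were both higher at 6 h, by 0.19 and 0.23 in WT and 0.25 and 0.16 in the Nrf1-KO line. Sec62 stood at 0.07 in WT at 24 h, which did not pass, but without WT 24 h replicate 1 it was 0.09 and did.

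The translocon-associated (TRAP) subunits did not move as a unit. At 24 h Ssr1 changed by -0.61 in WT and -0.81 in the Nrf1-KO line, and Ssr4 by -0.53 and -0.29. Ssr3 was higher by 0.12 and 0.21, but the WT value was -0.02 with upper-quartile scaling. Ssr2 was at 87.3, 81.8 and 89.6 CPM in WT DMSO, 94.2, 91.6 and 89.4 at 6 h and 97.4, 99.3 and 111 at 24 h. Its Nrf1-KO levels were 91.8, 94.9 and 92.2 CPM in DMSO, 79.6, 83.2 and 84.6 at 6 h and 85.3, 86.1 and 92.4 at 24 h. The WT libraries at 24 h lay above those of DMSO, and the Nrf1-KO libraries at 6 h below those of DMSO. The Ssr2 responses, Nrf1-KO minus WT, differed by -0.27 at 6 h and -0.33 at 24 h (edgeR adjusted p = 0.00164 and 3.67e-05). Its Nrf1-KO change at 24 h, -0.08, did not pass, and without Nrf1-KO 24 h replicate 3 it was -0.15 and did. In the annotation 12.8% of its exonic bases overlap Gm10704 on the opposite strand, and whether reads were counted by strand is not given.

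The signal peptidase members were divided likewise. Spcs3, a subunit of the complex, was at 208, 207 and 214 CPM in WT DMSO, 168, 175 and 166 at 6 h and 135, 134 and 131 at 24 h. The corresponding Nrf1-KO libraries had 177, 187 and 185, 135, 130.3 and 134 and 101, 97.8 and 102 CPM. Each treatment was fully below the one before it in both lines, and for each treatment all Nrf1-KO libraries were below all WT libraries. Spcs2 was lower at 24 h, with log2 fold changes of -0.32 in WT and -0.26 in the Nrf1-KO line. Spcs1 was at 83.3, 80.8 and 81.1 CPM in WT DMSO, 79.4, 84.5 and 79.7 at 6 h and 101, 97.5 and 104 at 24 h. The Nrf1-KO levels were 80.4, 81.5 and 82.8, 72.3, 75.6 and 78.6 and 74.6, 84.7 and 93.9 CPM in the same order. Its WT libraries at 24 h were above all others of that line, and those of the Nrf1-KO line at 24 h were spread widely around the DMSO level. The difference of the Spcs1 responses at 24 h was -0.25 (SE 0.072, edgeR adjusted p = 0.00327). Its Nrf1-KO change of 0.05 did not pass, and it was 0.09 without Nrf1-KO 24 h replicate 1 and -0.13 with library size alone, both past the test. On the opposite strand, Glt8d1 overlaps 16.3% of the exonic bases of Spcs1.

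In the ERAD group 8 of 9 members were tested, and 4 were higher and 1 lower in WT at 6 h. At 24 h 3 were higher and 5 lower in WT, with a median of -0.27. In the Nrf1-KO line 3 were higher and 2 lower at 6 h, and 2 were higher and 4 lower at 24 h, with a median of -0.08. With 8 members 1 gene is 12.5%, and the 37.5% higher in WT at 24 h and in the Nrf1-KO line at 6 h stood beside 43.2% and 34.5% of all genes. The 50% higher in WT at 6 h and the 25% higher in the Nrf1-KO line at 24 h stood beside 35.6% and 44.4%. The shares lower in WT were 12.5% at 6 h and 62.5% at 24 h, beside 36.2% and 40.5% of all genes. In the Nrf1-KO line they were 25% and 50%, beside 35.0% and 41.1%. With upper-quartile scaling the ERAD members higher and lower at 6 h were 4 and 3 in WT and 3 and 4 in the Nrf1-KO line. With library size alone they were 3 and 4 in WT and 2 and 5 in the Nrf1-KO line. At 24 h either scaling gave 2 higher and 6 lower in the Nrf1-KO line, as did the fit without the expression filter. The summed level went from 843 ± 5.51 to 965 ± 13.9 and 839 ± 7.25 CPM in WT and from 849 ± 1.01 to 1023 ± 20.4 and 924 ± 9.08 CPM in the Nrf1-KO line. Derl3, a derlin known from professional secretory cells, had 0 reads in all 18 libraries, and 3 reads would have stood for between 0.116 and 0.36 CPM.

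Herpud1, a membrane scaffold of the Hrd1 ubiquitin ligase that is itself degraded by the proteasome, rose early and was lower late in WT (chr8:94386438-94395377, GRCm38). In WT it was at 172, 175 and 175 CPM in DMSO, 235, 242 and 237 at 6 h and 96.2, 95.8 and 97.5 at 24 h. Nrf1-KO libraries had 168, 169.6 and 173 CPM in DMSO, 287, 292 and 299 at 6 h and 161, 170.3 and 165 at 24 h. All WT libraries at 24 h were below all other libraries of the 6 groups, whereas the Nrf1-KO libraries at 24 h overlapped with those of Nrf1-KO DMSO. The difference between the responses was 0.33 at 6 h (SE 0.045, edgeR adjusted p = 5e-07) and 0.81 at 24 h (SE 0.047, adjusted p = 1.37e-15). The Nrf1-KO change at 24 h, -0.04, did not pass, and was -0.10 without Nrf1-KO 24 h replicate 2, -0.15 when scaled by the upper quartile and -0.23 by library size alone, all past the test. This fall also passed without the expression filter.

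The EDEM mannosidases, which trim glycans on terminally misfolded proteins, each behaved differently. Edem1 was at 133, 136 and 136 CPM in WT DMSO, 158, 156 and 152 at 6 h and 97.3, 90.8 and 93.7 at 24 h. The Nrf1-KO values were 131, 132 and 132 CPM in DMSO, 149.8, 142 and 152 at 6 h and 130.0, 126 and 119 at 24 h. Edem1 was thus highest at 6 h in both lines, with the WT libraries at 24 h below all others. Its 24 h responses differed by 0.45 (SE 0.052, edgeR adjusted p = 8.27e-09). The small Nrf1-KO fall at 24 h, -0.08 (adjusted p = 0.0475), did not pass without any single Nrf1-KO DMSO replicate (adjusted p = 0.0648, 0.0703 and 0.0826 without replicates 1, 2 and 3) or without Nrf1-KO 24 h replicate 3 (0.0526).

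Edem3 moved in opposite directions in the lines at 6 h. In WT it was at 80.7, 78.3 and 79.7 CPM in DMSO, 92.1, 99.7 and 93.6 at 6 h and 119, 114 and 115 at 24 h. Its Nrf1-KO levels were 87.0, 77.6 and 81.8 CPM in DMSO, 68.0, 67.1 and 65.3 at 6 h and 81.7, 77.1 and 74.2 at 24 h. The WT treatments were fully separate and ascending, and the Nrf1-KO libraries at 6 h were below those of DMSO. It was the only one of the 39 members called higher in one line and lower in the other at the same time (0.26 and -0.29, difference -0.55, SE 0.063, edgeR adjusted p = 1.96e-08). At 24 h the responses differed by -0.62 (SE 0.06). The Nrf1-KO change at 24 h, -0.08, did not pass, but did without Nrf1-KO DMSO replicate 2 (-0.12) or without Nrf1-KO 24 h replicate 1 (-0.15) or 2 (-0.11), and with upper-quartile scaling (-0.19). This fall also passed with library size alone and without the expression filter.

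Edem2, which takes the first mannose in this trimming, was lower at 24 h, with changes of -0.34 in WT and -0.74 in the Nrf1-KO line, a difference of -0.40 (SE 0.086). The lectins that read the trimmed glycans also parted, since Os9 rose at 24 h by 0.50 in WT and 0.30 in the Nrf1-KO line and Erlec1 (XTP3-B) fell, with changes of -0.43 and -0.37. Derl1, a derlin of the retrotranslocation machinery, rose in both lines and more in the Nrf1-KO line, from 147 ± 0.731 to 185 ± 5.23 CPM in WT and from 158 ± 1.81 to 249 ± 3.09 CPM in the Nrf1-KO line at 24 h. The difference of the Derl1 responses was 0.29 at 6 h and 0.34 at 24 h (edgeR adjusted p = 1.36e-05 and 4.38e-07). Derl2, a related derlin, was lower at 24 h, at -0.20 in WT and -0.33 in the Nrf1-KO line.

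Between 6 h and 24 h of CFZ, 16 members were higher and 17 lower in WT (all genes, 36.9% and 35.4%), and 18 were higher and 13 lower in the Nrf1-KO line (all genes, 38.7% and 38.3%). In the folding group 9 were higher and 5 lower in WT with a median of 0.14, and 12 were higher and 3 lower in the Nrf1-KO line with a median of 0.48. Ero1lb rose most in both lines, by 1.46 in WT and 1.65 in the Nrf1-KO line. Herpud1 fell most in both, with changes of -1.30 and -0.82.

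In DMSO 11 members were higher and 10 lower in the Nrf1-KO line than in WT (all genes, 25.7% and 29.1%), none of them by 2-fold, and 15 and 8 with library size alone. At 6 h 9 were higher and 14 lower (all genes, 30.5% and 30.8%), and at 24 h 20 were higher and 10 lower (all genes, 35.6% and 36.4%). The split at 6 h was 14 higher and 11 lower when scaled by the upper quartile and 15 higher and 10 lower by library size alone, and it was 6 higher and 16 lower without the expression filter, while leaving out any 1 of the 6 libraries compared gave 6 or 7 members higher. Of the 17 folding members, 7 were higher and 5 lower in DMSO, and 13 were higher and 2 lower at 24 h. The 2 lower at 24 h were Dnajc3 and Sdf2l1 (-0.32 and -0.20).

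The response to CFZ differed between the lines for 15 of the 39 members at 6 h and 25 at 24 h. At 6 h the response was higher in the Nrf1-KO line for 4 and lower for 11 (all genes, 19.8% and 18.4%), and at 24 h it was higher for 15 and lower for 10 (all genes, 29.7% and 30.0%). In the folding group it was higher for 2 and lower for 4 at 6 h, and higher for 9 and lower for 2 at 24 h, with a median difference of 0.14 at 24 h where that of all genes was 0.00. In the translocation group it was higher for 0 and lower for 5 at 6 h and higher for 3 and lower for 5 at 24 h, and in the ERAD group 2 and 2, then 3 and 3. With library size alone the 24 h split over all members was 11 higher and 13 lower, and that of the folding group 7 and 3. At 6 h the split was 6 higher and 7 lower with upper-quartile scaling. At 6 h the differences of Sec61b and Ssr1 (-0.19 and -0.11) did not pass with DESeq2, with upper-quartile scaling, with library size alone, nor without WT DMSO replicate 3, WT 6 h replicate 2, Nrf1-KO DMSO replicate 2 or 3, any Nrf1-KO 6 h replicate or, for Ssr1, Nrf1-KO DMSO replicate 1. Without these the values ran from -0.21 to -0.13 for Sec61b and from -0.12 to -0.10 for Ssr1. The Ssr4 difference at 24 h (0.24) did not pass without Nrf1-KO 24 h replicate 2 (0.21) or 3 (0.16), nor with library size alone (0.16).

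**Figure D4:**
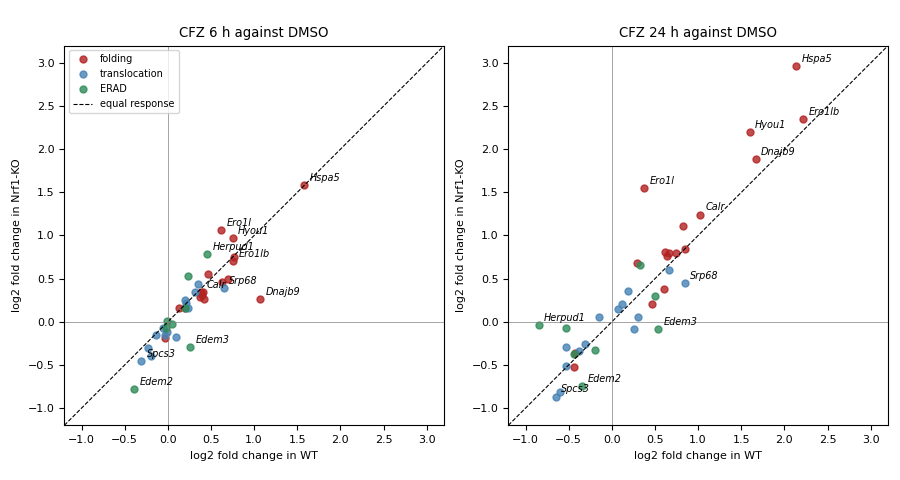
Log2 fold change after CFZ in the Nrf1-KO line (vertical) against WT (horizontal) for the 39 members at 6 h (left) and 24 h (right), with folding members in red, translocation in blue, ERAD in green and a dashed line of equal response. Dnajb9 and Edem3 lie below the line at 6 h, and Hspa5, Hyou1, Ero1l and Herpud1 above it at 24 h.

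Other genes of the same machinery were read from lists drawn up by function. Of 28 other ER folding genes tested, 12 were higher and 14 lower in WT at 24 h and 11 were higher and 14 lower in the Nrf1-KO line, against 15 and 2 of the 17 folding members in either line. At 6 h the counts were 11 and 10 in WT and 7 and 12 in the Nrf1-KO line. Of all genes tested 43.2% were higher and 40.5% lower in WT at 24 h. For WT cells treated for 6 h the all-gene shares higher and lower were 35.6% and 36.2%. Nrf1-KO cells had all-gene shares of 34.5% and 35.0% after 6 h, then 44.4% and 41.1% after 24 h. The largest rises in WT at 24 h were those of Qsox1, a sulfhydryl oxidase (1.41, and 0.23 in the Nrf1-KO line), and P4ha2, a collagen prolyl 4-hydroxylase subunit (1.03 and 1.58). The largest falls in WT at 24 h were those of Sil1, a nucleotide exchange factor for BiP (-1.41 and -1.46), and the isomerase Pdia5 (-1.34 and -1.90).

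Of 17 other translocation genes tested, 12 were higher and 3 lower in WT at 24 h and 10 were higher and 3 lower in the Nrf1-KO line, and at 6 h 12 and 2 in WT and 6 and 2 in the Nrf1-KO line. For this list and the next, the all-gene shares at 24 h were 43.2% and 40.5% in WT and 44.4% and 41.1% in the Nrf1-KO line. At 6 h they were 35.6% and 36.2% in WT and 34.5% and 35.0% in the Nrf1-KO line. In WT at 24 h the largest rises were those of Sec11c and Srp14. Sec11c, a catalytic subunit of signal peptidase, rose by 1.77 in WT and 0.82 in the Nrf1-KO line at that time, and Srp14, a subunit of the signal recognition particle, by 1.29 and 0.32, the latter the median of the list in the Nrf1-KO line. Of 25 other ERAD genes tested, 16 were higher and 7 lower in WT at 24 h and 14 were higher and 7 lower in the Nrf1-KO line, and at 6 h 17 and 6 in WT and 14 and 6 in the Nrf1-KO line. Among these the largest rises in WT at 24 h were those of Ufd1l and Nploc4, the cofactors with which the ATPase p97 extracts ERAD substrates, at 2.16 and 2.002 in WT and 1.29 and 1.18 in the Nrf1-KO line. The Nrf1-KO responses differed from those of WT by -0.87 and -0.82 (edgeR adjusted p = 9.57e-14 and 6.18e-14). Tmub1 and Foxred2, both known from ERAD complexes, fell most in WT at 24 h, at -1.45 and -1.26, and were at -0.70 and -1.53 in the Nrf1-KO line.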

How the data were processed

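RNA was sequenced from 18 cultures, and the authors deposited 1 table of raw counts, whole reads per gene symbol and without normalization. They made stranded mRNA libraries (KAPA kit), sequenced paired 125-base reads and ran RNA Express, which combines STAR and DESeq2. The genome build, annotation, versions and use of strand are not given in the sources used here, so reads of overlapping or near-identical genes could be assigned in unknown ways. Besides Ssr2 and Spcs1, this holds for Sec62 and Hsp90b1, with 11.7% and 10.3% of exonic bases overlapped on the opposite strand in GENCODE M21. For Manf and Sec61a1 the overlap was 8.85% and 8.16%, and Hsp90b1 had 5.38% on the same strand also. Columns were matched to samples by name.

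Differences were computed with edgeR 4.0.16 (R 4.3.3). Genes passed filterByExpr at a count of 10 and a total of 15, scaling was by TMM, and the test was a quasi-likelihood model of the 6 groups over 18 libraries with Benjamini-Hochberg adjustment over 11762 genes at a threshold of 0.05, without a minimum fold. The SE is the size of a log2 fold change divided by the square root of F. Of the symbols, 6577 had no count in any library. With a common biological coefficient of variation of 3.13%, small differences pass. Libraries of a group differed by more than sampling noise (chi-square per degree of freedom from 1.44 to 8.47), so each counted as 1 replicate. The pairs of Nrf1-KO libraries at 24 h gave 3.29, 8.47 and 3.54, and those in DMSO 3.07, 5.50 and 2.51. No pair of another group was above 2.62, while the single model gave all groups 1 spread per gene. The script was tested on simulated data. Coordinates, exon lengths, overlaps and shared 125-base stretches came from GENCODE M21 on GRCm38 by symbol (40 of 40), and promoters from RefSeq.

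The members and the lists were chosen with earlier results of these data known. Values in every library are given for Hspa5 and Herpud1 and, in each functional group, for the 3 members with the largest change in WT at 24 h and the 3 with the largest difference of responses at 24 h. From each list of other genes at most 2 rises and 2 falls in WT at 24 h are named. Alternatives were DESeq2 1.42.0, upper-quartile scaling, library size alone, no expression filter, a mean count of at least 10, a replicate block, the compared groups alone, omission of each single library and, for numbers of members, a minimum fold of 2.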

Additional observations from a re-analysis of the deposited data

Results flagged for a closer look

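The responses to CFZ differed between the WT and Nrf1-KO lines, by the interaction term of edgeR's quasi-likelihood test with Benjamini-Hochberg adjustment over all genes tested, for 15 members at 6 h and 25 at 24 h. Of all genes tested, 19.8% were called higher and 18.4% lower in this way at 6 h, and 29.7% and 30.0% at 24 h. Such calls were thus common among all genes. Values are log2 differences of the responses, Nrf1-KO minus WT. A higher response can be a larger rise or, as for Herpud1, Edem1 and Ssr4 at 24 h, a smaller fall. Likewise a lower response can be a smaller rise or a larger fall. No group of 3 libraries was examined for a single distant library.

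At 6 h the response of the Nrf1-KO line was higher for Ero1l (0.45), Herpud1 (0.33), Derl1 (0.29) and Hyou1 (0.22). It was lower for the folding members Dnajb9 (-0.81), Dnajc3 (-0.20), Hsp90b1 (-0.16) and Pdia6 (-0.15). It was also lower for Ssr2 (-0.27), Srp68 (-0.26), Sec61b (-0.19), Spcs3 (-0.15) and Ssr1 (-0.11), and for the mannosidases Edem3 (-0.55) and Edem2 (-0.38). Pdia6 and Spcs3 did not pass with upper-quartile scaling (-0.12 and -0.12).

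At 24 h it was higher for the folding members Ero1l (1.17), Hspa5 (0.83), Hyou1 (0.60), Manf (0.40), Pdia3 (0.28), Calr (0.22), Canx (0.20), Pdia4 (0.14) and Hsp90b1 (0.13). Among the others it was higher for Herpud1 (0.81), Edem1 (0.45), Derl1 (0.34), Ssr4 (0.24), Sec61a1 (0.20) and Sec63 (0.16). It was lower for Edem3 (-0.62), Edem2 (-0.40), Srp68 (-0.40), Ssr2 (-0.33), Sdf2l1 (-0.26), Spcs1 (-0.25), Dnajc3 (-0.23), Spcs3 (-0.21), Ssr1 (-0.21) and Os9 (-0.19). Sec63 did not pass with library size alone (0.09).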

How the results depend on the processing

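Of the 429 log2 fold changes of members over 11 comparisons, 327 kept their side of the threshold under every alternative, with no reversal. A reversal was a change of sign where the main or the alternative fit passed the test, and 422 had none. Changes of sign where neither fit passed were not counted. Library size alone turned P4hb and Os9 in WT at 6 h (-0.0036 and -0.089), Derl2 in the Nrf1-KO line at 6 h (-0.11), and Sec61a1, Sec62 and Spcs1 in the Nrf1-KO line at 24 h (-0.13, -0.029 and -0.13), and upper-quartile scaling turned Ssr3 in WT at 24 h (-0.015). These scalings shifted the median of all genes by over 0.1. In WT the upper quartile gave a shift of -0.11 at 6 h and -0.13 at 24 h against DMSO, and library size one of -0.13 and -0.10. In the Nrf1-KO line it was -0.11 with library size alone at 6 h, and at 24 h -0.11 with the upper quartile and -0.18 with library size. Members lower in WT at 6 h numbered 11 with the upper quartile and 12 with library size in place of 5, members lower in the Nrf1-KO line at 6 h 14 with library size alone in place of 9, members higher in the Nrf1-KO line than in WT at 6 h 14 and 15, in the same order, in place of 9, and responses lower in the Nrf1-KO line at 6 h 7 with upper-quartile scaling in place of 11. The share of called genes that were higher moved from 49.6% to 37.9% and 35.5% in WT at 6 h. With library size alone it was 36.4% in place of 49.7% for the Nrf1-KO line at 6 h, 41.6% in place of 52.0% at 24 h, 57.7% in place of 46.9% between the lines in DMSO and 60.8% in place of 49.8% between them at 6 h of CFZ.

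With a minimum fold of 2 the members higher and lower were 2 and 0 in WT at 6 h, 5 and 0 at 24 h, 2 and 0 in the Nrf1-KO line at 6 h, 7 and 0 at 24 h, 1 and 1 between the times in WT, 4 and 0 between the times in the Nrf1-KO line, 0 and 0 between the lines in DMSO, 0 and 1 at 6 h, 0 and 0 at 24 h, 0 and 0 for the difference of responses at 6 h, and 1 and 0 at 24 h. Leaving out single libraries gave between 26 and 27 members higher in WT at 6 h, 24 and 25 at 24 h, 24 and 25 in the Nrf1-KO line at 6 h, 21 and 23 at 24 h, and 14 and 16 responses higher in the Nrf1-KO line at 24 h. As a check of the replicate numbers, the deviations of libraries with 1 number correlated at 0.0252 on average over 45 pairs, of which 7 were over 0.1. The pairs ran from -0.07 to 0.17. Libraries with different numbers were not correlated for comparison, so this check cannot show that pairing was absent. With the replicate block 424 of the 429 changes kept their side of the threshold, 5 passed that had not (Dnajb9 and Spcs1 in the Nrf1-KO line at 6 h, 0.28 and -0.11, Sec62 in WT at 24 h, 0.07, Sec61g between the times in WT, -0.15, and Sec61b between the times in the Nrf1-KO line, -0.13), and no call was lost. Members higher and lower with the block were 25 and 14 in WT at 24 h. Genes with few reads, such as Dnajb9 and Ero1lb, have wide intervals.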

Other observations

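Of 23 genes of glycosylation and the oligosaccharyltransferase, 8 were higher and 8 lower in WT at 6 h and 9 were higher and 11 lower at 24 h, and in the Nrf1-KO line 9 and 9, then 9 and 11. The shares of all genes tested were 35.6% and 36.2% in WT at 6 h and 43.2% and 40.5% at 24 h. In the Nrf1-KO line they were 34.5% and 35.0%, then 44.4% and 41.1%. Prkcsh, the beta subunit of glucosidase II, and Man1a, a Golgi mannosidase, rose most in WT at 24 h (0.90 and 0.87, and 0.75 and 0.86 in the Nrf1-KO line). Ostc, an oligosaccharyltransferase subunit, and Mogs, glucosidase I, fell most in WT at that time (-1.24 and -0.79 in WT, -1.79 and -0.75 in the Nrf1-KO line).

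Of 12 sensors and factors of the unfolded protein response, 8 were higher and 3 lower in WT at 6 h and 6 were higher and 5 lower at 24 h, and in the Nrf1-KO line 6 and 4, then 5 and 7. The shares of all genes tested to set beside these are those given for the glycosylation genes. Ddit3, which encodes the transcription factor CHOP, rose by 1.47 in WT and 3.28 in the Nrf1-KO line at 24 h, and its responses differed by 1.81 (edgeR adjusted p = 9.78e-21). Ern1, which encodes the sensor IRE1, rose by 1.28 and 1.98, with a difference of 0.70 (adjusted p = 1.55e-08). The membrane-bound factors Creb3l2 and Creb3l1 fell most in WT at 24 h, at -1.57 and -0.86, and were at -1.23 and -0.89 in the Nrf1-KO line.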
